A study of Mus musculus with 74 samples.

Results

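Adipokines are hormones and other proteins that fat tissue releases into the blood. Leptin (Lep) reports the size of the fat stores to the brain, where its receptor signals through the Janus kinase and STAT pathway to limit feeding. Adiponectin (Adipoq) raises insulin sensitivity through the receptors encoded by Adipor1 and Adipor2, and resistin (Retn) opposes insulin in mice. Retinol binding protein 4 (Rbp4) carries vitamin A in the blood and is made by liver and fat. Chemerin (Rarres2) is a chemoattractant for immune cells, Nampt encodes the rate-limiting enzyme of NAD salvage, which is also secreted as visfatin, and adipsin (Cfd) is complement factor D.

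These 7 genes were taken as a list, and all probe sets that name 1 of them alone were read on all 74 arrays. Values were found for 6 of the 7, of 18193 genes in all, on 10 probe sets: 1 each for Lep, Adipoq, Retn and Rbp4 and 3 each for Rarres2 and Nampt. Cfd is not analysed here, because the annotation used pairs no probe set with it alone. Where a gene has several probe sets, the brightest over all arrays is given unless stated otherwise.

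RNA was profiled in male B6C3F1 mice in 3 separate studies, 1 for each compound, after 15 and 29 days of daily dosing. Fenretinide, a synthetic retinoid that also binds retinol binding protein, was given in the diet at 500 mg/kg. White fat of that study came from 3 vehicle and 3 fenretinide mice on day 15 and from 4 and 4 on day 29. Troglitazone, an activator of the fat cell receptor PPARγ, was given orally at 1200 mg/kg, and brown fat and liver were taken from 5 vehicle and 5 treated mice on each day. Elmiron (pentosan polysulfate), a sulfated polysaccharide, was given orally at 1000 mg/kg, and liver was taken from 5 vehicle and 5 treated mice on each day. The tissues are those in which hemangiosarcomas, tumours of endothelial cells, develop, and the doses lie above those of the carcinogenicity studies, per the labels. No fat depot is named in the labels used here, and compound and study cannot be told apart.

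All values are log2 of the deposited linear intensity and ran from 2.89 to 15.27 over all probe sets. Array medians lay between 6.80 and 6.94, and array number, not sequencing depth, limits the precision. A change is treated minus vehicle on the log2 scale, ± SE of a limma fit to all 18193 genes, and is called at a Benjamini-Hochberg adjusted p below 0.05. Replicates are separate mice. In bulk tissue, fewer cells of a type and less RNA per cell cannot be told apart.

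Several libraries stood apart from their tissue label and touch the adipokine values. In brown fat on day 29, vehicle mouse 82 and troglitazone mouse 95 had Ucp1, the uncoupling protein that defines brown fat, at 5.91 and 8.10. In the other 18 brown fat arrays Ucp1 lay between 14.91 and 15.11. Albumin (Alb) was 14.61 in mouse 82 and 10.40 in mouse 95, against 6.32 to 10.56 in the others. In white fat Ucp1 ran from 5.13 to 14.66 and Alb from 7.36 to 13.99, while the fat cell marker Fabp4 was 14.75 to 15.03 in all 14 white fat arrays. Adipokine differences between tissues and with troglitazone in brown fat are given with and without mice 82 and 95. Group means and correlations over them, the gene lists compared between tissues and differences between days keep both mice.

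The Lep and Adipoq promoters are shown because both genes are fat cell products, and of these Lep alone was called with a compound. In RefSeq (GRCm38.p6), Lep spans 29060221 to 29073876 on chromosome 6 and Adipoq 23146536 to 23157968 on chromosome 16, both protein-coding. The windows are the 250 bases before each start, 5′ to 3′ on the plus strand, at chr6:29059971-29060220 and chr16:23146286-23146535. Capitals in Lep mark a GGGCGG box and TTGCGCAA, the palindrome bound by C/EBP factors. Capitals in Adipoq mark CCAAT boxes on either strand.
Lep: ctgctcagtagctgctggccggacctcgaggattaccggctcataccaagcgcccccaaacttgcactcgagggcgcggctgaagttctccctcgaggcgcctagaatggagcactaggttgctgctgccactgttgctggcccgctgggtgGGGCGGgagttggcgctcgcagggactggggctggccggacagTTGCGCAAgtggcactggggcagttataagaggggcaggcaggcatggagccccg
Adipoq: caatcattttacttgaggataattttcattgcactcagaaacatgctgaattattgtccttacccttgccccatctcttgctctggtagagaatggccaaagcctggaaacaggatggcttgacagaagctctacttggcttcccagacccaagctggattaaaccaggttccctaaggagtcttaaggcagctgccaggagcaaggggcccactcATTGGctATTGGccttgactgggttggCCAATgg

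In Lep, TTGCGCAA lies at bases -55 to -48 from the start, and 54 of 32851 promoter windows of this length (0.164%) hold it. GGGCGG in Lep lies at -98 to -93 and is held by 32.7% of windows. The 3 CCAAT boxes of Adipoq begin at -34, -27 and -7, a motif in 33.8% of windows. Both strands were searched for these motifs, for TATAAA (12.4% of windows), for TGACGTCA (1.55%), for the nuclear receptor motif AGGTCA (14% of windows) and for direct repeats of AGGTCA with 1, 2 or 5 bases between. No member window held TGACGTCA or a direct repeat. Nampt held 5 GGGCGG boxes and 1 AGGTCA, and Retn and Cfd none of the motifs. Rbp4 held a TATAAA at -28 and GGGCGG boxes at -114 and -99 in 1 of its windows and a CCAAT box at -162 in the other. Windows were found for 6 of the 7 genes, not for Rarres2. A match describes these letters and is not evidence of binding.

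Lep, Adipoq and Retn had their highest median in white fat and their lowest in liver, Rbp4 was highest in liver, and Nampt was highest in brown fat. In vehicle mice of the troglitazone study, all 6 genes were called between brown fat and liver, where 76.1% of all genes were called, 31.6% as higher in brown fat and 44.5% as lower. Adipoq (9.39 ± 0.12 higher in brown fat), Retn (5.02 ± 0.24), Nampt (2.66 ± 0.14) and Lep (2.36 ± 0.54) were higher in brown fat. Rarres2 (-2.55 ± 0.27, brightest probe set) and Rbp4 (-1.18 ± 0.06) were lower there. Without mice 82 and 95 all 6 were called in the same directions, against 77.9% of all genes, with Lep at 1.92 and Rarres2 at -2.84.

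White fat of the fenretinide study and brown fat of the troglitazone study also differed, with 6 of 6 called against 58.3% of all genes (29.5% higher in white fat and 28.8% lower). Among vehicle mice Lep was higher by 3.90 ± 0.71 in white fat, Rarres2 by 2.63 ± 0.34, Retn by 1.96 ± 0.29, Rbp4 by 0.48 ± 0.09 and Adipoq by 0.39 ± 0.06. Nampt was lower in white fat by -0.91 ± 0.15. Without mice 82 and 95 all 6 were again called, against 66.9% of all genes, with 4.35 for Lep and -1.02 for Nampt. Tissue and study cannot be told apart in this comparison.

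**Figure D1:**
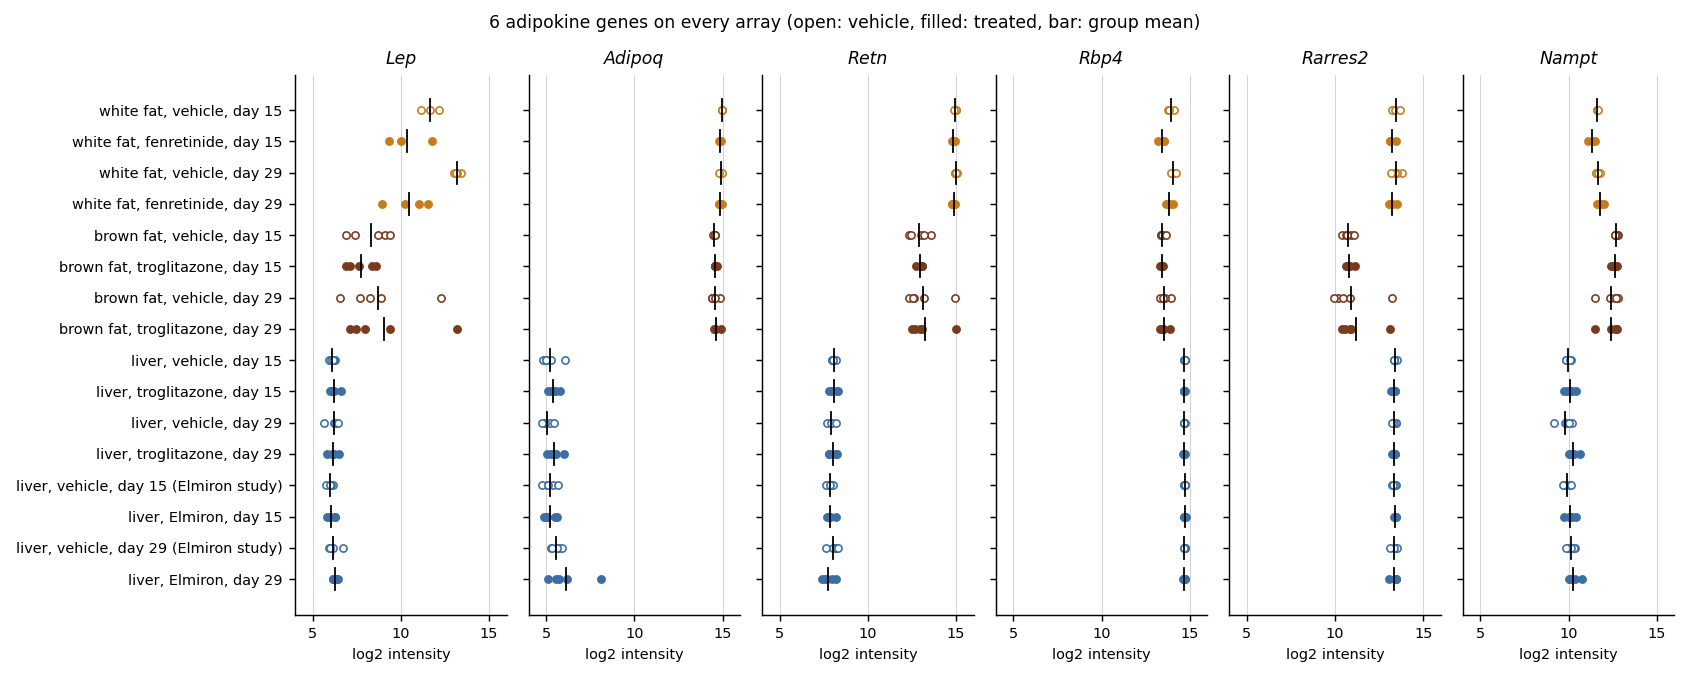
Log2 intensity (horizontal axis) of 6 adipokine genes on all 74 arrays in the 16 groups; open points are vehicle mice, filled points treated mice and bars group means. Lep runs from a mean of 13.19 in white fat of vehicle mice on day 29 down to 5.99 in liver, Adipoq and Retn are high in both fats, and Rbp4 is highest in liver.

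The 16 group means of Lep ran from 13.19 ± 0.17 (SD, n = 4) in vehicle white fat on day 29 to 5.99 ± 0.13 (n = 5) in vehicle liver of the Elmiron study on day 15. White fat held ranks 1 to 4, brown fat ranks 5 to 8 and liver ranks 9 to 16. Of 15 neighbouring pairs in this order, 13 overlapped in their arrays. The 2 that did not were vehicle white fat on day 29 against vehicle white fat on day 15, and the lowest brown fat group against the highest liver group. Over the 40 liver arrays Lep stayed between 5.66 and 6.69, below every array median.

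Adipoq lay at 14.77 to 14.99 in white fat and 14.42 to 14.68 in the 18 brown fat arrays, against 4.78 to 8.09 in liver. Retn lay at 14.77 to 15.04 in white fat, 12.31 to 13.57 in the 18 brown fat arrays and 7.41 to 8.32 in liver. The white fat levels of both lie close to the top of the scale. There Adipoq was 0.16 to 0.37 below the highest value of its array and Retn 0.075 to 0.38 below it. Whether differences between arrays were compressed at that level was not tested. For Adipoq and Retn, 14 of 15 neighbouring group pairs overlapped, and the fat and liver groups did not.

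Rbp4 ran the other way, at 14.61 to 14.77 in all 40 liver arrays, 13.20 to 14.25 in white fat and 13.30 to 13.68 in the 18 brown fat arrays. On its brightest probe set Rarres2 was high in both white fat (13.06 to 13.80) and liver (13.07 to 13.51). It was low in the 18 brown fat arrays (9.93 to 11.13), with mice 82 and 95 at 13.23 and 13.13. Another probe set gave medians of 13.25 in white fat, 13.34 in liver and 10.66 in all brown fat arrays. The remaining, dim probe set had another order, with medians of 7.33 in white fat, 6.95 in brown fat and 6.68 in liver. All 15 neighbouring pairs of Rarres2 groups overlapped, the lowest white fat and the highest brown fat group only through mouse 95. Nampt was highest in the 18 brown fat arrays (12.37 to 12.79), intermediate in white fat (11.09 to 12.03) and lowest in liver (9.17 to 10.74). Mice 82 and 95, both at 11.52, lay in the white fat range.

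The genes whose group means followed each adipokine most closely were found by Pearson's r over the 16 groups. These means form 3 tissue clusters and share arrays, so r mainly describes the order of tissues. For Lep they were Cdkn2b (0.993), which encodes a cell cycle inhibitor, Rbm28 (0.992) and Klhl8 (0.992). For Adipoq they were Lipe (0.999), the hormone-sensitive lipase, the fatty acid binding protein gene Fabp4 (0.999) and Dgat1 (0.999), which makes triglycerides. For Retn they were the integrin gene Itga6 (0.999), Dram1 (0.998) and Zfp423 (0.998), a regulator of fat cell precursors.

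For Rbp4 the closest genes were Igfals (0.994) and Alb (0.991), which encode blood proteins from liver, and Aldh1l1 (0.990), a folate enzyme. For Rarres2 they were the zinc transporter gene Slc39a8 (0.997), Cyp2e1 (0.993) and Bid (0.992). For Nampt they were Dhrs7 (0.995), the transcription factor gene Ebf3 (0.994) and the mitochondrial carrier gene Slc25a51 (0.994).

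Receptors and partners of the adipokines were read from fixed lists in the same tissue comparisons. Of 11 measured adipokine receptors, 9 were higher and 2 lower in brown fat than in liver (median 0.53, against -0.13 over all genes, of which 31.6% were higher and 44.5% lower). Cdh13, the T-cadherin that binds adiponectin, was higher by 2.89 ± 0.07 and the chemerin receptor gene Cmklr1 by 1.26 ± 0.33. Between white and brown fat 4 of 11 receptors were higher and 2 lower, a share near that of all genes (29.5% higher and 28.8% lower), led by Cmklr1 (3.17 ± 0.41) and Tlr4 (1.01 ± 0.11), a lipopolysaccharide receptor. The resistin relative Retnla was higher in brown fat than in liver by 3.76 ± 0.28 and higher again in white than in brown fat by 2.28 ± 0.34.

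The other lists are read against the same shares, 76.1% of all genes called between brown fat and liver, 31.6% as higher and 44.5% as lower, and a list near them is no result about that list. Of 9 measured folding and transport partners, 2 were higher and 6 lower in brown fat than in liver, with the blood carrier transthyretin (Ttr) at -6.75 ± 0.41. Of 6 measured complement partners of adipsin, 1 was higher and 3 lower, with Cfi (-6.98 ± 0.31) and Masp1 (-5.66 ± 0.17) the largest. Of 13 genes of NAD salvage and use, 5 were higher and 7 lower, with Qprt, an enzyme of NAD synthesis from tryptophan, at -5.47 ± 0.12. Of 12 leptin signalling genes, 7 were higher and 1 lower, with Stat5a at 2.06 ± 0.11 and Socs3, a feedback inhibitor, at -1.16 ± 0.41. Of 13 fat cell transcription factors 8 were higher and 4 lower, led by Ebf2 (4.92 ± 0.11) and Pparg (4.76 ± 0.09).

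Between white and brown fat, 58.3% of all genes were called, 29.5% as higher in white fat and 28.8% as lower, and the lists are read against these shares. There 3 of the 6 complement partners were higher and none lower, with Cfb, adipsin's substrate, at 2.51 ± 0.35. Of the 13 NAD genes 3 were higher and 6 lower in white fat, with Nnmt, which methylates nicotinamide, at 2.77 ± 0.34 and the mitochondrial deacetylase gene Sirt3 at -1.67 ± 0.23. Of 30 measured other secreted factors of fat, 16 were higher and 4 lower, led by angiotensinogen (Agt, 3.88 ± 0.54) and Mest (3.63 ± 0.52). Of the 13 transcription factors 7 were higher and 3 lower, with Cebpd at 2.16 ± 0.30 and Cebpb at -1.62 ± 0.28.

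In white fat on day 29, leptin RNA was 6.68-fold lower with fenretinide, and it was the 1 adipokine called with any compound, over 8 contrasts against vehicle. Lep was 13.01, 13.41, 13.20 and 13.13 in vehicle mice 81, 83, 85 and 86. It was 11.55, 11.05, 8.93 and 10.26 in fenretinide mice 91, 93, 94 and 95. All 4 treated mice lay below all 4 vehicle mice and the treated values spread more widely.

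The change was -2.74 ± 0.55 (13.19 ± 0.17 to 10.45 ± 1.14, SD, n = 4 each), with a limma adjusted p of 0.0354. Of all genes 1.34% were called in this comparison, 0.929% as lower, and in 8.75% the groups did not overlap. The call was lost when the day 29 groups were fitted alone (adjusted p = 0.0598) and without any 1 of vehicle mice 81, 83, 85 and 86 or treated mice 94 and 95 (0.0554 to 0.0893). It was kept without treated mouse 91 (0.0303) or 93 (0.0497), and without any 1 array the change lay between -3.11 and -2.23.

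On day 15 Lep was 11.15, 12.14 and 11.64 in vehicle mice and 9.98, 11.77 and 9.32 in fenretinide mice. Treated mouse 58 lay inside the vehicle range and the other 2 below it. The change was -1.28 ± 0.63 and was not called (adjusted p = 0.290). The change on day 29 minus that on day 15 was -1.46 ± 0.84 and not called (adjusted p = 0.428, with 1.33% of all genes called), so the days are not shown to differ.

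The vehicle groups themselves lay apart. Lep was higher in vehicle mice on day 29 than on day 15 by 1.55 ± 0.59, with no overlap, but this was not called (adjusted p = 0.427). In that comparison 0% of genes were called and 11.6% did not overlap. The fenretinide groups differed by 0.09 ± 0.59 between the days (adjusted p = 0.949). These comparisons between days were chosen after the values were seen.

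**Figure D2:**
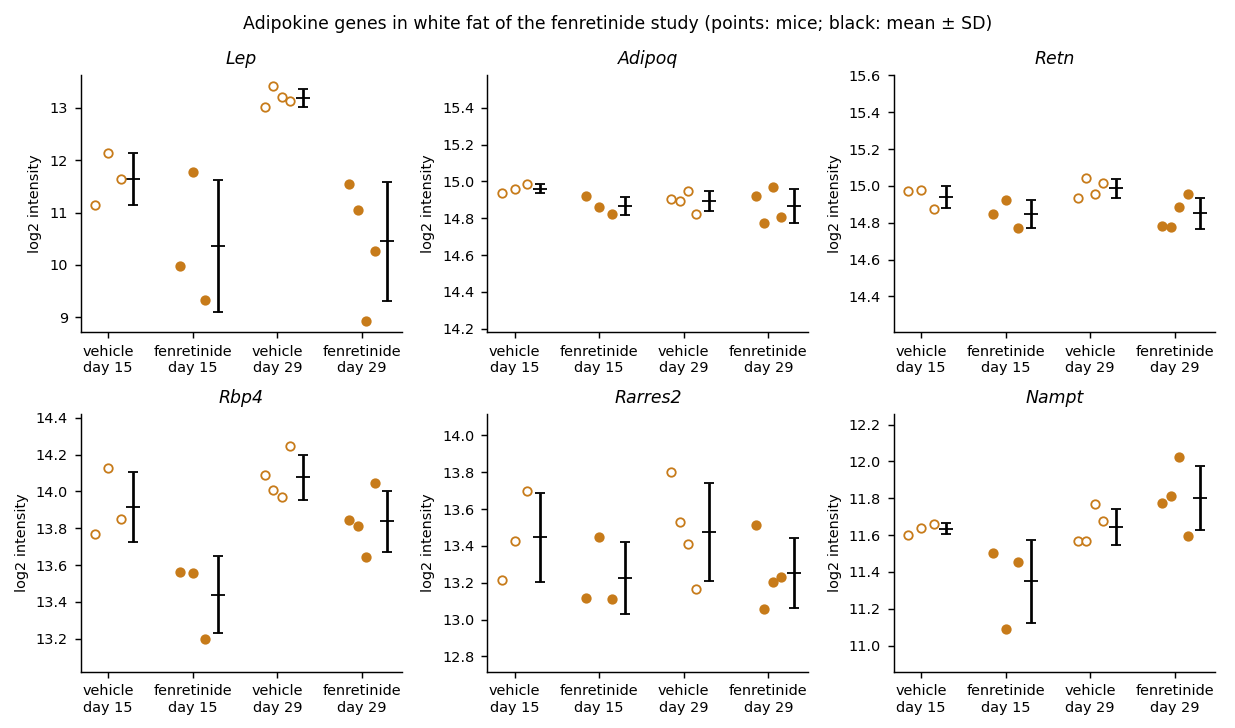
Log2 intensity (vertical axes, each panel with its own range) of 6 adipokine genes in white fat; points are mice, open for vehicle and filled for fenretinide, and black marks are means ± SD. Lep on day 29 is the 1 called change, from 13.19 to 10.45. Rbp4, Nampt (brightest probe set) and Adipoq on day 15 lie below vehicle without overlap but without a call, where 27.9% of all genes did not overlap.

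On day 29 none of Adipoq, Retn, Rbp4, Rarres2 and Nampt was called, with changes of -0.03 ± 0.07, -0.14 ± 0.07, -0.24 ± 0.12, -0.23 ± 0.15 and 0.16 ± 0.11, and their groups overlapped. Adipoq was 14.91, 14.89, 14.95 and 14.82 in vehicle mice and 14.92, 14.77, 14.97 and 14.80 in treated mice. The 95% interval of its change, -0.17 to 0.12, bounds the difference on this scale.

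On day 15 no adipokine was called, where 3.95% of all genes were, and 2 of 6 had an unadjusted p below 0.05. The share of all genes at that unadjusted p is not given, here or in the comparisons below. Such counts are therefore no result about adipokines in particular. Rbp4 was 13.77, 14.13 and 13.85 in vehicle mice and 13.56, 13.56 and 13.20 in fenretinide mice. Its groups did not overlap, and its change was -0.48 ± 0.14 (adjusted p = 0.0753). Rbp4 protein is the carrier that fenretinide is known to bind in blood.

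Nampt was 11.60, 11.64 and 11.66 in vehicle mice and 11.51, 11.09 and 11.45 in treated mice on day 15. Its groups did not overlap either (-0.28 ± 0.12, adjusted p = 0.231), nor did those of Adipoq (-0.09 ± 0.08, adjusted p = 0.537). On the other Nampt probe sets the groups overlapped. Of all genes 27.9% did not overlap in this comparison, against 3 of 6 adipokines. After median centring, which lowers every change of that day by 0.15, Rbp4 (-0.63, adjusted p = 0.0149) and Nampt (-0.44, adjusted p = 0.0487) were called, and with array weights Rbp4 was (-0.39, adjusted p = 0.0485).

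Between the days, Nampt was higher in fenretinide mice on day 29 than on day 15 by 0.45 ± 0.12 and Rbp4 by 0.40 ± 0.13. Neither was called (adjusted p = 0.0554 and 0.113), though their groups did not overlap, as in 16.6% of all genes, of which 3.19% were called. Vehicle mice differed by 0.01 ± 0.12 for Nampt and 0.16 ± 0.13 for Rbp4. The other probe sets gave similar signs. On day 15 the 3 Nampt probe sets differed from vehicle by -0.28, -0.18 and -0.20 and the 3 Rarres2 probe sets by -0.52, -0.22 and -0.27, with none called, against 3.26% of all single-symbol probe sets. On day 29 they differed by 0.16, 0.09 and 0.10 for Nampt and by -0.07, -0.23 and -0.26 for Rarres2, again with none called, against 1.16%.

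Of the genes around the adipokines, the leptin receptor gene Lepr in white fat differed from vehicle by -0.06 ± 0.18 on day 15 and -0.11 ± 0.15 on day 29, the fat cell regulator Pparg by -0.20 ± 0.22 and -0.49 ± 0.19, and Cebpa by -0.29 ± 0.11 and -0.10 ± 0.10. Fabp4 differed by -0.07 ± 0.08 and -0.06 ± 0.07 and Retnla by -0.24 ± 0.17 and -0.40 ± 0.15. None of these 5 genes was called on either day (lowest adjusted p 0.184).

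Pparg was 12.15, 12.59, 12.16 and 12.32 in vehicle mice on day 29 and 11.24, 12.14, 12.04 and 11.84 in fenretinide mice. All 4 treated mice lay below the vehicle range, without a call (adjusted p = 0.247), and 8.75% of all genes did not overlap there. Cebpa, whose product can bind the palindrome shown above for Lep, was 13.83, 13.78, 13.81 and 13.79 in vehicle mice and 13.55, 13.58, 13.70 and 13.99 in treated mice, which overlapped.

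Among the lists, receptors had 0 of 11 called on day 15 and 1 on day 29, where 3.95% and 1.34% of all genes were called. That gene was Cdh13, at 9.75, 10.33, 9.75 and 9.90 in vehicle mice and 9.04, 9.49, 8.72 and 8.49 in fenretinide mice. All treated mice lay below all vehicle mice, and Cdh13 fell by -1.0 ± 0.22 (adjusted p = 0.0475). In 8.75% of all genes the day 29 groups did not overlap. Leptin signalling had 0 of 12 called on either day, with medians of -0.15 and 0.28 against -0.04 and -0.02 over all genes. Folding and transport partners (9) and NAD genes (13) had none called on either day.

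The counts that follow stand beside the same shares of all genes called, 3.95% on day 15 and 1.34% on day 29. Of 6 complement partners Cd55, a complement inhibitor on cell surfaces, fell on day 29 (-0.84 ± 0.17, adjusted p = 0.0349). Of 13 transcription factors the retinoid X receptor gene Rxra fell on day 15 (-0.40 ± 0.10, adjusted p = 0.0380) and none was called on day 29. Of 30 other secreted factors, apelin (Apln, 1.21 ± 0.31) rose on day 15. On day 29 adrenomedullin (Adm, 1.44 ± 0.27) rose and C1qtnf7 (-0.67 ± 0.13), an adiponectin relative, fell. The median change of these 30 was -0.22 on day 15, with 12 of 30 above 0, and 15 of 30 lay above 0 on day 29.

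Of all genes 3.95% were called on day 15 and 1.34% on day 29, beside which the marker counts are given. Of 17 mature fat cell markers, 3 fell on day 15, namely Slc7a10 (-1.06 ± 0.19), Aqp7 (-0.78 ± 0.14) and Pnpla2 (-0.41 ± 0.09), and 1 on day 29 (Slc7a10, -0.76 ± 0.16). Their mean score relative to vehicle was -0.41 to -0.13 in treated mice on day 15 and -0.18 to -0.12 on day 29, with vehicle mice at -0.03 to 0.04 and -0.02 to 0.01. The treated and vehicle scores did not overlap on either day. The share of this score in the change of Lep was not tested.

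Markers of other cells also differed between these arrays. On day 15, 7 of 14 epithelium markers were called higher, where 3.95% of all genes were called in either direction, among them Prom1 (5.48 ± 0.18), with scores of 1.94 to 2.93 in treated and -0.65 to 0.13 in vehicle mice. Their part in the day 15 values of Rbp4, Nampt and Lep was not tested. On day 29, 3 of 11 fibroblast and mesothelial markers fell, where 0.929% of all genes were called lower, with scores of -0.42 to -0.30 in treated and -0.54 to 0.59 in vehicle mice.

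On day 29, none of 11 brown fat cell markers and none of 14 hepatocyte markers was called, but several arrays were high. Ucp1 was 13.44 and 11.69 in vehicle mice 85 and 86 and 12.82 and 14.66 in treated mice 91 and 93. In the rest Ucp1 lay between 5.13 and 7.56. Alb was 11.60 and 13.93 in vehicle mice 85 and 86 and 12.22 and 13.99 in treated mice 93 and 95. In the rest Alb lay between 8.23 and 9.67. Brown fat cell scores ran from -0.94 to 1.86 in vehicle and from -0.01 to 3.51 in treated mice, and hepatocyte scores from -0.75 to 2.58 and from -0.54 to 3.80. Without mice 85 and 93, the highest in brown fat cell score in each group, Lep differed by -2.94 (adjusted p = 0.110, with 0.231% of all genes called). Without mice 86 and 95, the highest in hepatocyte score, it differed by -2.70 (adjusted p = 0.110, with 0.671% of all genes called). Both changes lie close to the -2.74 of all mice, while the call was lost. So were the day 29 calls of Cdh13, Cd55, Adm and C1qtnf7 without either pair of mice, and those of Slc7a10 and the 3 fibroblast and mesothelial markers without mice 85 and 93. These pairs were chosen after the values were seen. Without mice 85 and 93, mice 86 and 91 stay high in Ucp1 and mice 86 and 95 in Alb. Without mice 86 and 95, mice 85 and 93 stay high in both. The Lep change with all such arrays left out was not tested.

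Across the 14 white fat arrays, Npr3, the clearance receptor for natriuretic peptides, followed Lep more closely than any other gene (Pearson's r = 0.997). Npr3 was 13.58, 13.81, 13.69 and 13.76 in vehicle mice on day 29 and 12.43, 12.16, 10.71 and 11.69 in fenretinide mice. Fenretinide mouse 94 was lowest in both genes, and on day 15 mouse 58 lay inside the vehicle range in both.

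The next highest were Anxa1 (0.968), which encodes an anti-inflammatory annexin, Klhl5 (0.956), Mpdz (0.956) and Cdkl2 (0.946). The lowest were Ripply3 (-0.924), the transcription factor gene Tbx3 (-0.911), Bean1 (-0.908), Id1 (-0.899), an inhibitor of helix-loop-helix factors, and Cln3 (-0.885). These are the extremes among all other genes, chosen by r itself, over arrays that share groups, so they are a description with no test.

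Because the 4 vehicle arrays of day 29 stood apart, r was also taken over the other 10 arrays. It was 0.994 for Npr3, 0.944 for Anxa1, -0.788 for Tbx3 and -0.829 for Id1. Taken over deviations from the 4 group means, it was 0.991 for Npr3, 0.926 for Anxa1, -0.693 for Tbx3 and -0.768 for Id1. Npr3 and Lep thus went together among mice of the same group.

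On day 29 Npr3 fell by -1.96 ± 0.36 (adjusted p = 0.0264) and Anxa1 by -0.81 ± 0.14 (adjusted p = 0.0206), while Id1 rose by 1.37 ± 0.16 (adjusted p = 0.00217) and Tbx3 by 1.48 ± 0.25 (adjusted p = 0.0192). Mpdz (adjusted p = 0.0515), Bean1 (0.126) and Cln3 (0.231) were not called on day 29, where 1.34% of all genes were. All these genes were chosen by r with Lep over the same arrays. Their changes on day 29 thus follow in part from that choice and are no separate support for that of Lep. On day 15 none of the 10 genes was called, where 3.95% of all genes were, with Npr3 at -0.88 ± 0.42 (adjusted p = 0.267). Id1 was 11.06, 10.82, 10.78 and 10.69 in vehicle mice on day 29 and 11.93 to 12.44 in treated mice. In vehicle mice on day 15 it was 11.86 to 12.36, inside the range of the day 29 treated mice but for mouse 50 at 11.86.

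**Figure D3:**
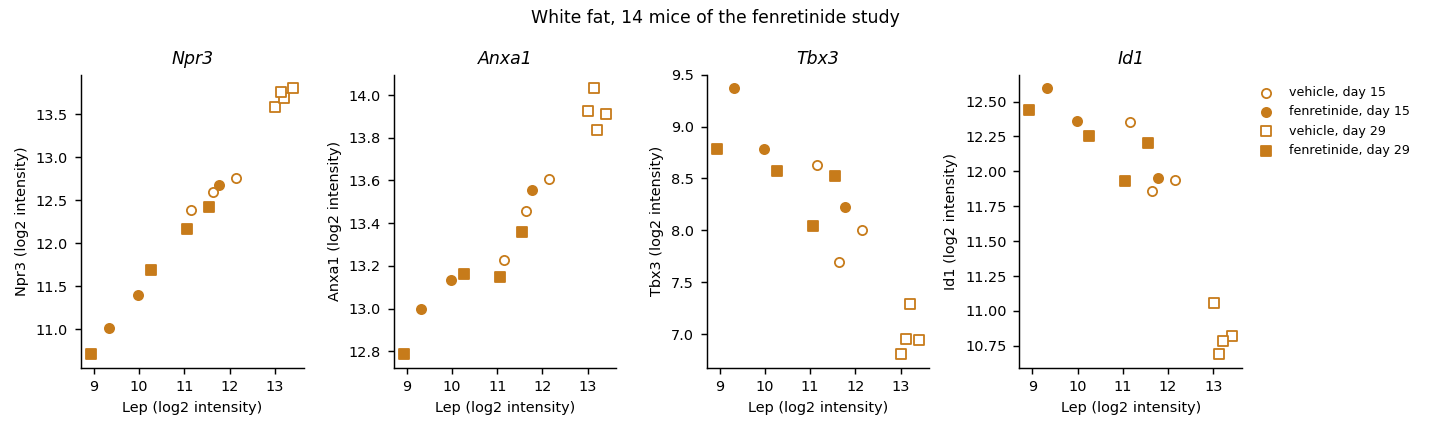
Npr3, Anxa1, Tbx3 and Id1 (vertical axes, log2 intensity) against Lep (horizontal axis, log2 intensity) in the 14 white fat mice; circles are day 15, squares day 29, open vehicle and filled fenretinide. Npr3 and Anxa1 run along with Lep (r = 0.997 and 0.968), Tbx3 and Id1 against it, and the 4 vehicle mice of day 29 form a corner of their own.

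Among the adipokines themselves, deviations from the group means in white fat gave r between Lep and the others of -0.64 (Nampt) to 0.52 (Rbp4) over 14 arrays.

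In brown fat no adipokine was called with troglitazone on either day, where 0.0605% and 0.0550% of all genes were called. None of the 6 had an unadjusted p below 0.05 on either day. Lep was 9.10, 6.87, 7.40, 9.41 and 8.71 in vehicle mice on day 15 and 6.89, 8.56, 7.63, 7.14 and 8.37 in treated mice, which overlapped (-0.58 ± 1.04, adjusted p = 0.9998). On day 29 Lep was 12.27, 7.66, 8.26, 6.55 and 8.90 in vehicle mice and 7.46, 7.95, 9.37, 7.13 and 13.21 in treated mice (0.29 ± 1.04, adjusted p = 0.9998). The highest value in each day 29 group was mouse 82 or 95, and the rest overlapped.

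Those 2 libraries had the adipokine levels of white fat. In both mice all 6 genes lay inside the range of the 14 white fat arrays and none inside the range of the other 18 brown fat arrays. The share of all genes that did so was not counted. With 58.3% of all genes called between the fats, this is no result about adipokines in particular. Rarres2 of both mice also lay inside the liver range (13.07 to 13.51). Retn was 14.92 and 14.97, Rarres2 13.23 and 13.13, and Nampt 11.52 in both. Brown fat cell scores were -4.15 and -3.66, skeletal muscle scores -4.95 and -4.46 and mature fat cell scores 0.33 and 0.58, and Cidec, a lipid droplet gene, was 14.21 and 14.33 against 12.69 to 13.37 in the other 18. Mouse 82 also had a hepatocyte score of 4.75.

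**Figure D4:**
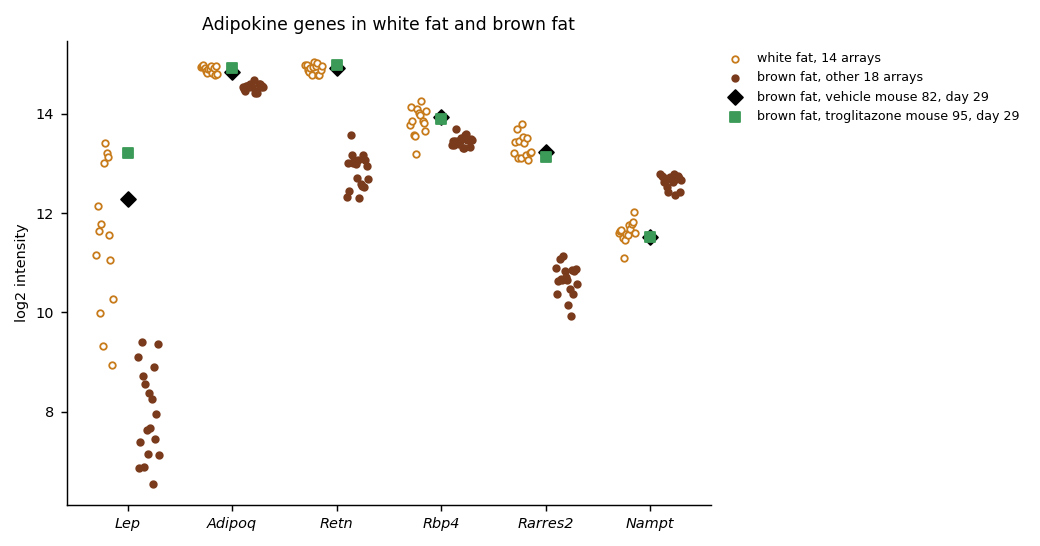
Log2 intensity (vertical axis) of 6 adipokine genes in 14 white fat arrays (open), 18 brown fat arrays (brown), and brown fat of vehicle mouse 82 (diamond) and troglitazone mouse 95 (square) on day 29. All 6 genes of both mice lie in the white fat range and outside that of the 18 other brown fat arrays. The share of all genes that do so was not counted.

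Without these mice, brown fat gave 173 and 198 called genes (0.951% and 1.09%) on days 15 and 29, and still no called adipokine. Lep differed by -0.58 ± 0.55 and 0.13 ± 0.61, and Rarres2 by 0.06 ± 0.16 and 0.31 ± 0.18 (adjusted p = 0.432 on day 29). Adipoq, a gene that PPARγ is known to activate, differed by 0.06 ± 0.05 and 0.08 ± 0.05 (adjusted p = 0.785 and 0.499). Over the 18 arrays the deviations of Lep from the group means gave r = 0.83 with Rarres2 and 0.64 with Adipoq, against 0.94 and 0.92 over all 20. With Retn, Rbp4 and Nampt r was 0.43, -0.09 and -0.10, against 0.87, 0.68 and -0.83 over all 20.

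In the same fit, where 0.951% and 1.09% of all genes were called on days 15 and 29, troglitazone gave called changes around the adipokines. Retnla, the resistin relative, rose on day 29 (1.42 ± 0.31, adjusted p = 0.0343). Of 30 other secreted factors Angptl4, a lipase inhibitor, rose on both days (0.49 ± 0.11 and 0.54 ± 0.12), C1qtnf9 fell on both (-0.37 ± 0.08 and -0.43 ± 0.09), and on day 29 C1qtnf12 rose and Vegfa fell (-0.54 ± 0.11). Pparg itself fell on day 15 (-0.49 ± 0.09, adjusted p = 0.0104). Of 17 mature fat cell markers 3 rose on day 15 and 1 on day 29, and no receptor or leptin signalling gene was called. With all 20 arrays none of these list members was called.

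In liver no adipokine was called with troglitazone, where 0.0220% and 0.115% of all genes were called on days 15 and 29. At an unadjusted p below 0.05 there was 0 of 6 on day 15 and 1 of 6, Nampt, on day 29, with the share of all genes not given. Nampt differed by 0.44 ± 0.16 on day 29 (9.81 ± 0.39 to 10.25 ± 0.25, n = 5 each, adjusted p = 0.412), with overlapping groups. The other Nampt probe sets differed by only 0.14 and 0.15 there. Adipoq was 4.92, 5.19, 4.95, 5.46 and 4.78 in vehicle mice and 5.26, 5.45, 5.05, 5.98 and 5.54 in treated mice (0.39 ± 0.20, adjusted p = 0.503). The fatty acid transporter gene Cd36 was the 1 list member called there on day 29 (1.75 ± 0.22, adjusted p = 6.0e-04). Rbp4, whose main source is the liver, differed by -0.02 ± 0.06 and -0.01 ± 0.06.

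With Elmiron no adipokine was called either, where 0% and 0.00550% of all genes were called, and 0 of 6 had an unadjusted p below 0.05 on either day. Adipoq in liver was 5.29, 5.70, 5.90, 5.62 and 5.31 in vehicle mice on day 29 and 6.16, 8.09, 5.53, 5.75 and 5.08 in treated mice. The change of 0.56 ± 0.35 (adjusted p = 0.657) rested on mouse 92, without which it was 0.07 ± 0.20. In that library Ucp1 was 9.64, against 5.75 to 6.19 in the other 4 treated mice, and Fabp4 was 10.57, against 8.52 to 8.99. Cidec was not raised there, at 5.44 against 5.51 to 6.27. The part of those markers in the Adipoq value was not tested.

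**Figure D5:**
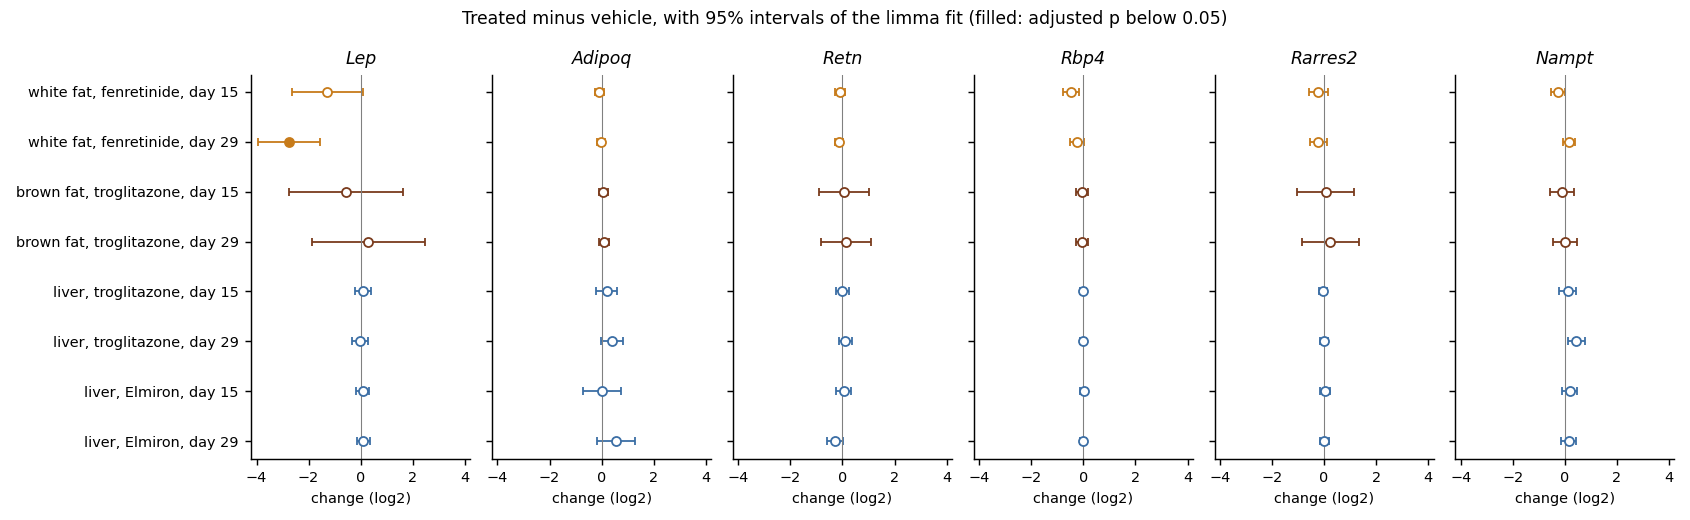
Change with treatment (horizontal axis, log2, with the 95% interval of the limma fit) of 6 adipokine genes in 8 contrasts of a compound against its vehicle; filled points were called. Lep in white fat on day 29 (-2.74) is the 1 filled point, and the intervals of Lep, Retn and Rarres2 in brown fat are wide.

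The troglitazone effect did not differ by a called amount between brown fat and liver for any adipokine, on either day (0 of 6 each by limma, against 0.0220% and 0.0165% of all genes, and 0 of 6 at an unadjusted p below 0.05). For Lep the difference of effects was -0.66 ± 1.07 on day 15 and 0.32 ± 1.07 on day 29. Without brown fat of mice 82 and 95 it was -0.66 ± 0.57 and 0.16 ± 0.60, again not called. For the effect on day 29 minus that on day 15, 0 of 6 adipokines and 0% of all genes were called by limma in brown fat and in the liver of either study, and 0 of 6 had an unadjusted p below 0.05. In white fat Nampt had an unadjusted p below 0.05 for that difference (0.44 ± 0.17, adjusted p = 0.231).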

How the data were processed

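RNA of 74 tissue samples was read on Affymetrix mouse arrays. The deposited values are linear intensity per probe set after RMA, per the submitters' processing notes. The RMA version is not given in the sources used here. Log2 of the deposited intensity was taken for all work. Of 45101 probe sets, 34945 name 1 gene, 932 several and 9160 none, and 64 are controls. The brightest probe set by mean stood for each of 18193 genes. Changes were fitted with limma 3.58.1 (R 4.3.3) within each tissue and study, over all its groups (1 joint fit for each pair of tissues compared), with Benjamini-Hochberg adjustment. The scripts were tested on simulated data. P-values weigh a difference of group means against the spread between mice within groups. The joint fit of brown fat and liver took arrays of the same mouse as separate.

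Members and lists were chosen with earlier results of these data known. Named genes were the adipokines, a fixed set around them, the called list members with the largest changes, and the genes closest to each adipokine by Pearson's r. A marker score is the mean over a list of log2 differences from the vehicle mean of that tissue and study, over both days. Plin1 and Cfd are not analysed here. Alternatives covered normalization, filters, weights, call rules and left-out mice. For 15 mice the labels give brown fat and liver of 1 animal. Deviations in the 2 tissues correlated between -0.135 and 0.151.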

Additional observations from a re-analysis of the deposited data

Results flagged for a closer look

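Single samples far from the rest of their group were looked for in 84 sets of values (6 genes in 14 groups of 4 or 5 mice), and 10 were found. Chance flags about 1 in 20 such sets. Brown fat of troglitazone mouse 95 on day 29 gave 5 of them: Adipoq was 14.93 (others 14.53 to 14.59), Retn 14.97 (12.52 to 13.06), Rbp4 13.89 (13.33 to 13.49), Rarres2 13.13 (10.38 to 10.88) and Nampt 11.52 (12.41 to 12.74). In brown fat of vehicle mouse 82 on day 29, Rarres2 was 13.23 (9.93 to 10.85).

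In brown fat on day 15, Retn was 12.72 in troglitazone mouse 54 (12.99 to 13.06) and Rbp4 was 13.68 in vehicle mouse 45 (13.36 to 13.44). In liver of the Elmiron study on day 29, Lep was 6.69 in vehicle mouse 81 (5.95 to 6.14) and Rarres2 was 13.07 in treated mouse 91 (13.41 to 13.46).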

How the results depend on the processing

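Of 2295 values of single adipokines under an alternative, 11 lost a call, 3 gained one and none was called with the sign turned. In white fat on day 15 the count of called adipokines rose from 0 to 2 with median centring and to 1 with array weights. On day 29 it went from 1 to 0 when the groups were compared alone, and to 0 without mice 85 and 93 or without mice 86 and 95, pairs chosen after seeing the data. Without 1 array it was 0 to 1. Over 19 alternatives the Lep change stayed between -3.11 and -2.23, with adjusted p from 0.0198 to 0.110, and was called in 10. With mouse as a replicate block, 6 adipokines were called between brown fat and liver and 0 on each day for the difference in troglitazone effect, as without it. With a required change of 1.5-fold, Adipoq (0.39) and Rbp4 (0.48) lost their calls between white and brown fat. The filter on dim probe sets left out 2 adipokines in liver and 1 between brown fat and liver, so no value exists there. Leaving out mice 82 and 95 was also chosen after seeing the data. Adipoq and Retn lie near the top of the scale in white fat, and so does Rbp4 in liver, 0.37 to 0.56 below the highest value of its array. Lep and Adipoq lie near the bottom in liver, with medians of 6.14 and 5.30. Whether changes were compressed at these levels was not tested.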
